A study of Mus musculus and Rattus norvegicus with 26 samples.

Results

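The axon guidance ligands and receptors were examined in the cytoplasmic intron sequence-retaining transcripts (CIRTs) of neuronal, fat and heart cells. Members were all genes whose symbol begins with Sema, Plxn, Efn, Slit, Robo, Unc5 or Ntn, or with Epha, Ephb or Nrp and a digit, together with Dcc. The rule uses names only and no measured value. It found 56 genes of 13695 in the 6 lists, with 831 of 112345 contigs and 501 of 85860 listed introns, where an intron counts once in each list that holds it. They were 14 semaphorins, 8 plexins, 2 neuropilins, 4 ephrins, 13 Eph receptors, 3 Slits, 3 Robo receptors, 2 netrins, 1 netrin-G (Ntng1), Dcc, 4 Unc5 receptors and Unc50. Unc50 shares only the first letters of its name with the netrin receptors and is no guidance receptor, and Ntng1 encodes a membrane-anchored relative of the netrins. Both were kept because the rule takes them.

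Axon guidance proteins are cues outside the cell and receptors on its surface that together steer growing axons and dendrites. Semaphorins act through plexins and neuropilins, ephrins through Eph receptors, Slits through Robo receptors, and netrins through Dcc, which attracts axons, and the Unc5 receptors, which repel them. The same proteins shape blood vessels and the heart, where class 3 semaphorins, neuropilins and Robo receptors are well known, and several of their genes are very long and consist mostly of intron.

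The lists covered 6 conditions. Dendrites and somas came from cultured hippocampal neurons of embryonic day 18 C57BL/6 mice (3 libraries each) and Sprague-Dawley rats (2 dendrite and 3 soma libraries), with the dendrites cut off by hand. The day is the labelled one, and the sources of the study do not give the same day throughout for the rat neurons. It is the day of harvest, after which the neurons were grown in culture. Per the study's methods, a dendrite library pooled many dissected dendrites, whereas a soma library came from a single cell. This difference in material cannot be told apart from compartment in any comparison of dendrites with somas. BAT cells were single cells of interscapular brown adipose tissue of CD-1 mice at embryonic day 17.5 (6 libraries). Cardiomyocytes were single ventricular cells of transgenic C57BL/6 mice at embryonic day 14.5 that carry a fluorescent cell cycle reporter driven by a CMV promoter (9 libraries). All RNA went through 3 rounds of aRNA amplification, a linear copying of RNA by T7 polymerase that starts from a poly(T) primer. The study's text counts fewer BAT cells and fewer cardiomyocytes than there are libraries, and the lists do not show which libraries entered them. The authors pooled the libraries of a condition into a single list, so that no value per library and no error between libraries can be given, and no comparison of 2 lists has a test. In such a pool, more cells with a transcript and more of it per cell cannot be told apart. Age and cell isolation differ between the neurons, BAT cells and cardiomyocytes. The strain of the BAT cells differs from that of the mouse neurons and cardiomyocytes, and the cardiomyocytes carry a transgene. None of these can be told apart from cell type.

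Each list row is a contig, a run of overlapping or neighbouring reads inside an intron, with the raw read count of that intron, and the count was taken once per transcript and intron. The lists held between 1007530 reads (rat dendrites) and 17858440 reads (BAT cells), so gene sums are also given per 1000000 intronic reads of the list, called RPM below. Reads and shares of reads below are as counted and grow with the length of intron a gene has, so they are not levels of one gene against another. A gene with no contig is not listed, which is not the same as 0 reads, and no ratio was formed for it. Marker genes of the labelled cells were listed, beside those of other cells. Of 10 neuronal markers, 8 were listed in mouse dendrites and 9 in mouse somas, with 1446 and 12424 RPM in all. In rat dendrites 4 of the 10 were listed (2660.0 RPM) and in rat somas 6 (9637 RPM). Of 10 brown adipocyte markers 8 were listed in BAT cells (8774 RPM), and of 10 cardiomyocyte markers 8 in cardiomyocytes (26468 RPM). Markers that go against the labels had intronic reads as well. The mouse dendrite list held 4 of 6 astrocyte markers, Gfap among them, at 966 RPM, against 3 of 6 without Gfap at 142 in mouse somas. It also held 6 of 10 cardiomyocyte markers at 780 RPM (15.6 in mouse somas), 5 of 10 brown adipocyte markers with Ucp1 among them at 221 RPM (1.08 in mouse somas) and 4 of 5 endothelial markers at 639 RPM (733 in mouse somas). The BAT list held 8 of 10 neuronal markers at 1043 RPM and 5 of 10 cardiomyocyte markers at 2779. The part of these cells in the results below was not tested.

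Sequences of mouse contigs are printed here because they are the material that the counts rest on. All were read from the NCBIM37 (mm9) genome 5′ to 3′ on the strand of the gene, and capitals mark a run of at least 10 adenines, to which the poly(T) primer of the aRNA procedure could anneal. The first 4 show stretches inside an intron that contigs of 3 mouse lists covered. Where an adenine run lay close downstream, the print goes on to its end, and prints end after at most 300 nt, keeping the 3′ side.
Nrp1 intron 12, in mouse dendrites, mouse somas and cardiomyocytes, chr8:131015381-131015680, plus strand: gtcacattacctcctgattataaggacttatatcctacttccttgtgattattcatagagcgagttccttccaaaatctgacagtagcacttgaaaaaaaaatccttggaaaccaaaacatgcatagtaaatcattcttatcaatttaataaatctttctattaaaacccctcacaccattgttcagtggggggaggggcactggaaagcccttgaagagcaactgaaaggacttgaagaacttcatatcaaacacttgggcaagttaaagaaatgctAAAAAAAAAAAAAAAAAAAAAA
Plxna2 intron 12, in mouse somas, BAT cells and cardiomyocytes, chr1:196602121-196602420, plus strand: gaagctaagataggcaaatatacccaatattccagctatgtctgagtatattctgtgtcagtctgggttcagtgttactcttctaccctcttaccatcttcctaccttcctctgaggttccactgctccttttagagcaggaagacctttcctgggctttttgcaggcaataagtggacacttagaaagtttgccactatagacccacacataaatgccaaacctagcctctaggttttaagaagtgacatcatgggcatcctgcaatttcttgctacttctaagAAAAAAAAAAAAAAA
Sema3g intron 1, in mouse dendrites, mouse somas and cardiomyocytes, chr14:32033141-32033364, plus strand: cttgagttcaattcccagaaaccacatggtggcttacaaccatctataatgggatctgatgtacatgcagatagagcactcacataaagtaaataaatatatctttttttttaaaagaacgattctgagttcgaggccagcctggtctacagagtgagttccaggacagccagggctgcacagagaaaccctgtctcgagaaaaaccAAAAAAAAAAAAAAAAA
Robo1 intron 3, in mouse dendrites, mouse somas and BAT cells, chr16:72931243-72931439, plus strand: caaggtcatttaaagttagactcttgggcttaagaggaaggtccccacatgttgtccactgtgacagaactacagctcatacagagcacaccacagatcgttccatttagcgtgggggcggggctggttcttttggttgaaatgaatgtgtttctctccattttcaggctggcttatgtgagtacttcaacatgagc
Contigs of all 3 named lists cover the first 101 printed letters of Nrp1, 273 of Plxna2 and 204 of Sema3g, and all 197 of Robo1. The run of adenines began 177 nt after the shared stretch in Nrp1, 12 nt after it in Plxna2 and 3 nt after it in Sema3g, and no run of this length lay within 300 nt in Robo1.

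The next 2 belong to the most read member introns of mouse dendrites, the shortest of the 6 contigs in Sema5a intron 5 and the 3′ end of the single contig of 776 nt in Unc5a intron 7. Neither has an adenine run of at least 10 inside or within 300 nt downstream on the strand of the gene. The Sema5a contig opens with a thymine run, which is an adenine run on the other strand, and the protocol does not keep strand.
Sema5a intron 5, mouse dendrites, chr15:32419420-32419664, plus strand: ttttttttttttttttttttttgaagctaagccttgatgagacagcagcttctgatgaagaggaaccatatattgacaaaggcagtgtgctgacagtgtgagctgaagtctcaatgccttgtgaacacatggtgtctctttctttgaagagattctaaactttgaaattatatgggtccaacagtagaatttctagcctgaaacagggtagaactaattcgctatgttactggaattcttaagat
Unc5a intron 7, mouse dendrites, chr13:55100112-55100411, plus strand: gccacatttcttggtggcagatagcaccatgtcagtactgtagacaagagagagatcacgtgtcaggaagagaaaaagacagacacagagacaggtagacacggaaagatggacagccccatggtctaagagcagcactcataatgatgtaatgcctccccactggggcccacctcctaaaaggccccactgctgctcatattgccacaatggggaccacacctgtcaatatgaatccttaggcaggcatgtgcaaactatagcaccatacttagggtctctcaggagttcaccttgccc
The last 2 lie in Sema3e intron 1, which was read heavily in BAT cells and cardiomyocytes, and show that contigs of the same intron can sit at distant sites in 2 lists. They were picked as the ones with an adenine run close downstream, 1 of 16 contigs of this intron in BAT cells and 1 of 10 in cardiomyocytes, and do not stand for the others.
Sema3e intron 1, BAT cells, chr5:14070910-14071186, plus strand: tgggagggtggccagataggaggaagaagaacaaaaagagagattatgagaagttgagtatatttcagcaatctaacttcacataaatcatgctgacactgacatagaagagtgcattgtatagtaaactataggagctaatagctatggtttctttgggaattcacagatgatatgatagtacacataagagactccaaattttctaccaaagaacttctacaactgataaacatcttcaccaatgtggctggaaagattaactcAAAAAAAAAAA
Sema3e intron 1, cardiomyocytes, chr5:14046824-14047060, plus strand: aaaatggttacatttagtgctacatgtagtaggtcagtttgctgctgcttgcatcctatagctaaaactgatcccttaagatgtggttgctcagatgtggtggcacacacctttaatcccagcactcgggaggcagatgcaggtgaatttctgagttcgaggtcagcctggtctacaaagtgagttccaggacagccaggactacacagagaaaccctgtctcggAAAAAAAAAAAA
The Sema3g stretch and this Sema3e contig hold the same 22 letters, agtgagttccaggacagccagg, which belong to the B1 family of short interspersed repeats of the mouse. The letters were picked after the sequences were seen. Searched on both strands, they were found in 7 of 238 member contigs of mouse dendrites (2.94%, against 5.22% of all contigs of the list), in 1 of 121 in mouse somas (0.826%, against 4.42%), in 5 of 269 in BAT cells (1.86%, against 4.40%) and in 4 of 103 in cardiomyocytes (3.88%, against 4.46%).

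Member genes were listed in every condition. Mouse dendrites held 44 of the 54 members found in any mouse list (81.5%), where the list held 69.0% of all genes of the mouse lists. Mouse somas held 34 (63.0%, against 47.3%), BAT cells 48 (88.9%, against 82.0%) and cardiomyocytes 26 (48.1%, against 49.8%). In rat, dendrites and somas each held 18 of 23 members (78.3%), against 78.5% of all rat genes for dendrites and 59.4% for somas. All 4 mouse lists held 19 members, which is 35.2% of the 54, against 24.6% of all genes. Both rat lists held 13 members, which is 56.5% of the 23, against 37.9%. The 9 members present in all 6 lists were the netrin receptor Dcc, the Eph receptor Epha4, the semaphorin receptor Nrp1, the semaphorins Sema3c, Sema3d and Sema5a, the Robo ligands Slit2 and Slit3, and Unc50. Of the 18 members in rat dendrites, 16 were also in mouse dendrites (88.9% of the rat and 36.4% of the mouse members), against 61.6% and 32.1% for all genes. Ephb3 and Plxnb2 were listed in rat only.

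**Figure D1:**
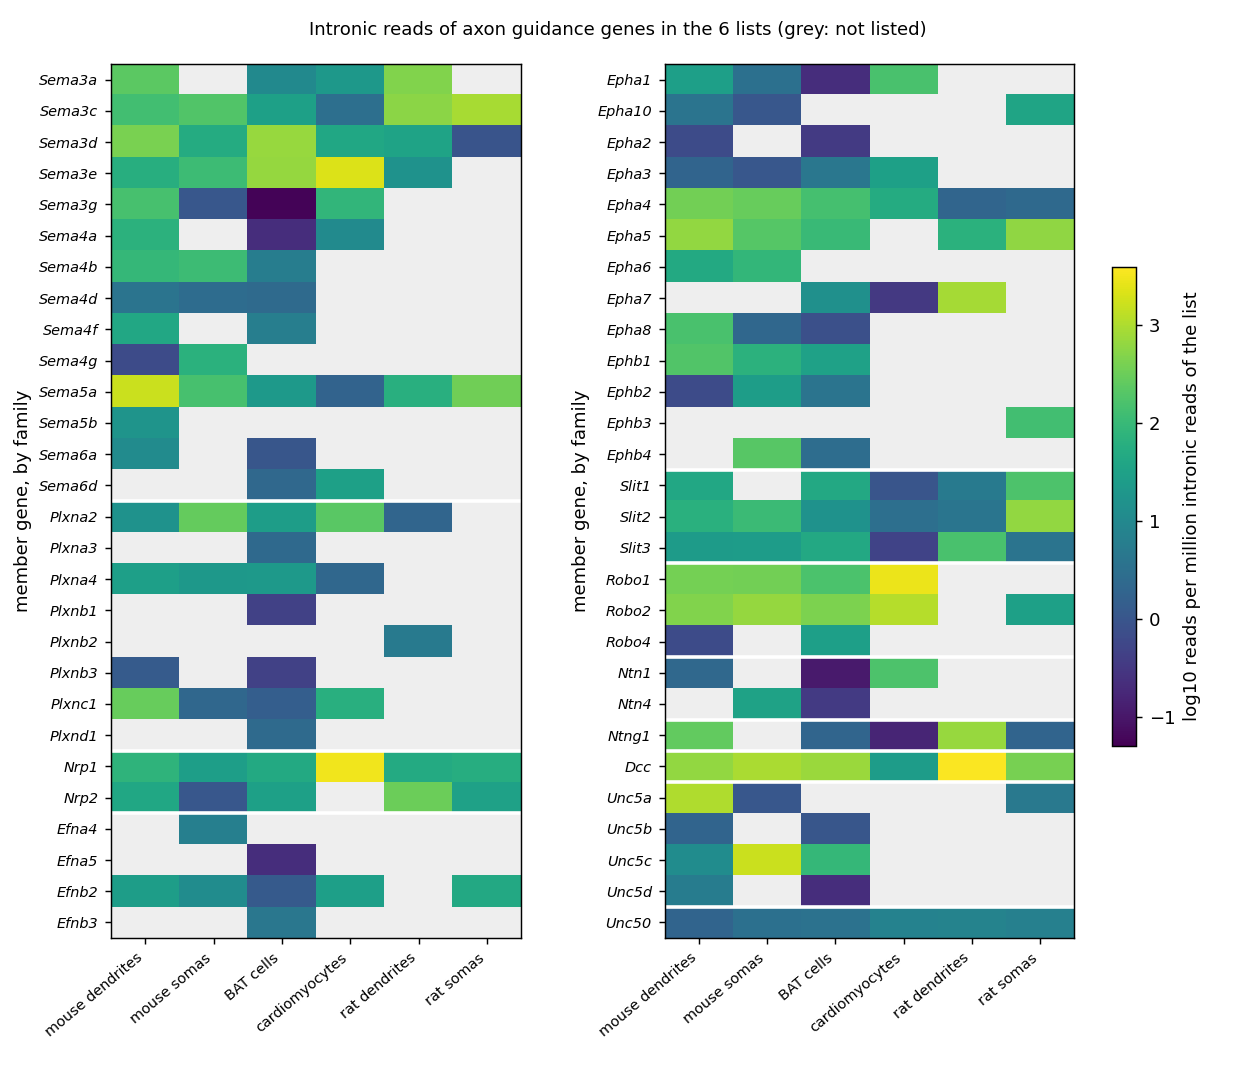
Intronic reads of the 56 member genes (rows, grouped by family with white lines) in the 6 lists (columns), as log10 of RPM; grey cells are genes that a list does not hold. Along their rows, Nrp1, Robo1 and Sema3e are brightest in cardiomyocytes and Dcc in rat dendrites. Rows are not corrected for length.

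Member reads summed to 23763 in mouse dendrites (7699 RPM), 10532 in mouse somas (5676), 61811 in BAT cells (3461), 125544 in cardiomyocytes (10289.6), 7065 in rat dendrites (7012) and 7168 in rat somas (3422). These sums rested on a few introns. The single most read member intron carried 20.9% of the member reads in mouse dendrites, 14.7% in mouse somas, 17.0% in BAT cells, 25.4% in cardiomyocytes, 48.1% in rat dendrites and 26.9% in rat somas. The leading 5 introns together carried between 45.4% (mouse somas) and 80.3% (rat dendrites). At the other end, introns with 1 to 3 reads made up between 14.6% (BAT cells) and 26.2% (rat dendrites) of the listed member introns.

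An intron with at least 256 reads, a high threshold of the study, was found for 15 of 44 member genes in mouse dendrites (34.1%, against 23.5% of all genes of the list), 7 of 34 in mouse somas (20.6%, against 18.7%) and 16 of 48 in BAT cells (33.3%, against 40.2%). The numbers were 14 of 26 in cardiomyocytes (53.8%, against 42.9%), 6 of 18 in rat dendrites (33.3%, against 15.8%) and 6 of 18 in rat somas (33.3%, against 30.4%). No interval or test goes with these shares, and in mouse and rat somas the distance from the share of all genes is less than 1 member gene. With contigs of at most 400 nt, the length limit of the study for whole cells, the numbers were 4 of 33 in mouse somas (12.1%, against 11.6% of all genes), 13 of 48 in BAT cells (27.1%, against 25.7%), 9 of 24 in cardiomyocytes (37.5%, against 25.6%) and 5 of 11 in rat somas (45.5%, against 14.0%).

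Semaphorins, the largest family of cues, were headed in reads by Sema3c in mouse somas, rat dendrites and rat somas, by Sema5a in mouse dendrites, by Sema3d in BAT cells and by Sema3e in cardiomyocytes. In mouse dendrites they held 37.2% of the member reads, and Sema5a, a transmembrane semaphorin with thrombospondin repeats, had 5078 of their 8842 reads. Sema5a had 1645 RPM in mouse dendrites, 149 in mouse somas, 21.5 in BAT cells, 1.80 in cardiomyocytes, 60.5 in rat dendrites and 339 in rat somas. Nearly all of its mouse dendrite reads, 4957, lay in intron 5, which is 64241 nt long and held 6 contigs. The same intron had 1606 RPM in mouse dendrites, 8.62 in mouse somas, 10.4 in BAT cells and 0.164, from 2 reads, in cardiomyocytes. Among the secreted class 3 semaphorins, most of which bind neuropilins, Sema3e, which binds plexin D1 directly, had 2194 RPM in cardiomyocytes and 675 in BAT cells. In neurons Sema3e had 58.0 RPM in mouse dendrites, 115 in mouse somas and 15.9 in rat dendrites, so the neuronal lists were the low ones. Sema3d had 693 RPM in BAT cells, 414 in mouse dendrites, 51.7 in mouse somas and 40.8 in cardiomyocytes. Sema3c had 549 RPM in rat dendrites and 921 in rat somas, and 129 and 188 in the same lists of the mouse. Sema3a, which collapses growth cones, was listed in dendrites of both species (230 RPM in mouse and 463 in rat) and in neither soma list. It also had 10.4 RPM in BAT cells and 20.7 in cardiomyocytes. Sema3g had 149 RPM in mouse dendrites and 84.2 in cardiomyocytes, and only 2 reads in mouse somas and 1 in BAT cells.

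Plexins, the signalling receptors of the semaphorins, contributed between 0.0991% (rat dendrites) and 5.17% (mouse somas) of member reads, and no plexin was listed in rat somas. Plxna2 had more reads than any other plexin in mouse somas (271 RPM), cardiomyocytes (221) and BAT cells (26.4), and had 15.6 RPM in mouse dendrites and 1.99, from 2 reads, in rat dendrites. Plxnc1, the receptor of Sema7a, did so in mouse dendrites with 287 RPM, against 60.7 in cardiomyocytes, 2.16 in mouse somas and 1.46 in BAT cells. Nrp1, the co-receptor for Sema3a that also binds VEGF, had 37746 reads in cardiomyocytes, 30.1% of the member reads there. In RPM it had 3094 in cardiomyocytes, 78.1 in mouse dendrites, 28.0 in mouse somas, 48.4 in BAT cells, 49.6 in rat dendrites and 56.3 in rat somas. Intron 8 alone held 31862 of the cardiomyocyte reads in a single contig of 2177 nt, and it ranked 19th of all introns of that list. Nrp2 was listed everywhere but in cardiomyocytes, with 41.8 RPM in mouse dendrites, 1.08 (2 reads) in mouse somas, 31.0 in BAT cells, 310 in rat dendrites and 31.5 in rat somas.

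Ephrins held at most 1.34% of the member reads in any list. Efnb2, which marks arteries, was the only one in more than 1 list, with 26.6 RPM in mouse dendrites, 11.9 in mouse somas, 1.23 in BAT cells, 29.8 in cardiomyocytes and 45.8 in rat somas. Their receptors held a larger share of reads in all 6 lists. In mouse dendrites the 10 listed Eph receptors held 18.5% of member reads, with 1959 for Epha5 and 1133 for Epha4, both highly expressed in forebrain neurons. Epha5 had 635 RPM in mouse dendrites, 203 in mouse somas, 105 in BAT cells, 66.5 in rat dendrites and 608 in rat somas, and was not listed in cardiomyocytes. Epha4 had 367 RPM in mouse dendrites, 288 in mouse somas, 142 in BAT cells and 51.1 in cardiomyocytes, and only 2 reads in rat dendrites and 5 in rat somas. Epha1 had 155 RPM in cardiomyocytes and 29.8 in mouse dendrites, where BAT cells had 4 reads and mouse somas 6. In rat dendrites nearly all Eph reads, 889 of 958, lay in intron 9 of Epha7.

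The Robo receptors held 39.4% of member reads in cardiomyocytes, 35324 reads of Robo1 and 14079 of Robo2. In RPM Robo1 had 2895 in cardiomyocytes, 381 in mouse dendrites, 365 in mouse somas and 164 in BAT cells and was not listed in rat. Robo2 had 1154 RPM in cardiomyocytes, 473 in mouse dendrites, 666 in mouse somas, 432 in BAT cells and 31.0 in rat somas. Robo4, the Robo of blood vessels, had 531 reads in BAT cells (29.7 RPM) and 2 in mouse dendrites. The BAT list held 5 of 5 endothelial markers at 206 RPM, fewer RPM than mouse dendrites (639), mouse somas (733) and cardiomyocytes (288) had, and the part of endothelial cells in the Robo4 reads was not tested. The Slits, the ligands of these receptors, took between 0.0446% and 3.08% of member reads in 5 lists and 23.7% in rat somas, with 635 RPM for Slit2 and 174 for Slit1. In cardiomyocytes the 3 Slits together had 56 reads.

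Among netrins and their receptors, the receptors had most of the reads in every list but cardiomyocytes. Ntn1 was listed with 2085 reads in cardiomyocytes (171 RPM) and with 7 in mouse dendrites and 2 in BAT cells, and Ntn4 with 61 in mouse somas (32.9 RPM) and 6 in BAT cells. No netrin was listed in rat. Dcc had 633 RPM in mouse dendrites, 954 in mouse somas, 734 in BAT cells, 25.9 in cardiomyocytes, 3689 in rat dendrites and 394 in rat somas. It held 52.6% of the member reads of rat dendrites, 3398 of its 3717 reads in intron 5. Unc5a and Unc5c, both repulsive netrin receptors, were split between the neuronal compartments of the mouse. Unc5a had 1030.3 RPM in mouse dendrites, all in intron 7, which is only 1255 nt long, and 2 reads in mouse somas. In rat, Unc5a was listed in somas (10 reads, 4.77 RPM) and not in dendrites. Unc5c had 12.3 RPM in mouse dendrites, 1589 in mouse somas and 92.1 in BAT cells. No Unc5 receptor was listed in cardiomyocytes. Ntng1 had 259 RPM in mouse dendrites and 710 in rat dendrites, was not listed in mouse somas and had 4 reads in rat somas.

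**Figure D2:**
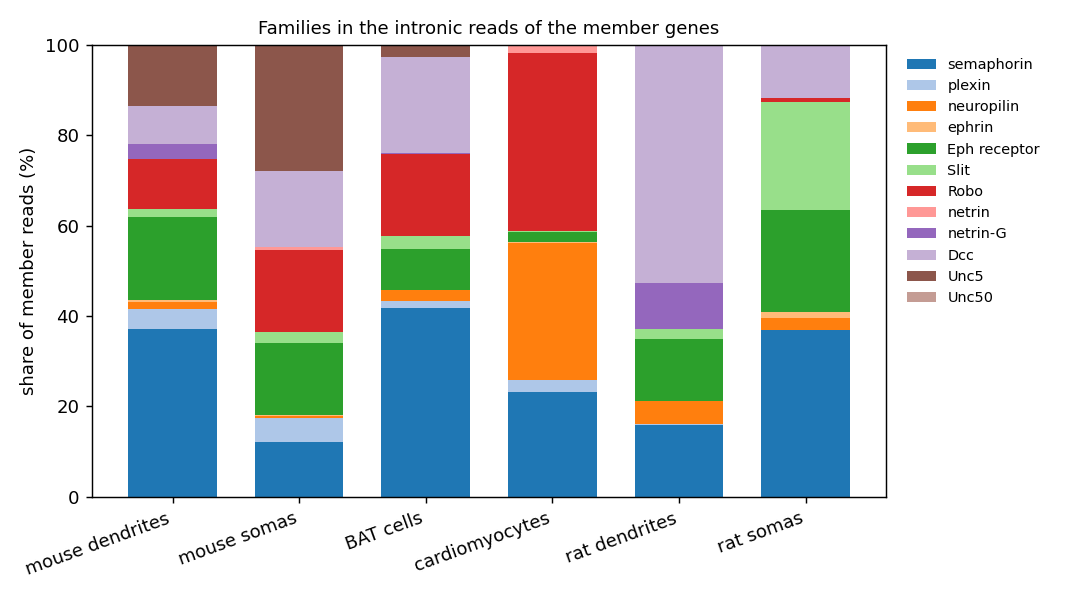
Share of the member reads (%) that each family took in the 6 lists, as stacked bars. Robo receptors and the neuropilin Nrp1 fill 39.4% and 30.1% of the cardiomyocyte bar, Dcc fills 52.6% of the rat dendrite bar, and Unc5 receptors fill 28.0% of the mouse soma bar.

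As levels, different genes were compared per length, as reads per kb of summed intron of the mouse transcript. On this scale Unc5a (60.4 reads per kb) and Sema3g (58.0) led mouse dendrites, followed by Epha8 (20.8), whereas Sema5a had 11.5 and Dcc, with 1087 kb of intron, 1.80. Mouse somas were led by Ephb4 (16.1), Sema4g (12.9) and Unc5c (8.19). BAT cells were led by Robo4 (64.2), Sema3d (62.1) and Sema3e (53.7). Cardiomyocytes were led by Nrp1 (269), Epha1 (165), Sema3g (129) and Sema3e (119). Short genes such as Robo4, with 8.27 kb of intron, thus stood beside long ones.

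The comparison of mouse dendrites with mouse somas asks which intron-containing transcripts were found in the dendrite and which in the cell body. Of the 44 members in dendrites, 31 were also in somas. Of these 31, 8 were at least 4-fold higher in dendrites in RPM (25.8%, against 33.2% of all genes in both lists) and 4 were at least 4-fold higher in somas (12.9%, against 24.9%). Among members with at least 32 reads in both lists, the numbers were 2 and 2, and the median below changed sign to -0.20. For counts past 4-fold at this minimum or at a contig limit, no share of all genes is given. This holds for the other pairs too, so such counts cannot be set against all genes. The median log2 ratio of dendrites to somas was 0.51 for members and 0.27 for all 4739 genes. The largest ratio belonged to Unc5a, with 1030.3 RPM in dendrites and 1.08 in somas, 956-fold with a 95% counting interval of 264 to 7896 because somas had 2 reads. Plxnc1 had 287 and 2.16 RPM (133-fold, interval 51.8 to 490), Sema5a 1645 and 149 (11.1-fold, interval 9.80 to 12.5) and Sema3d 414 and 51.7 (8.0-fold, interval 6.49 to 9.95). On the soma side stood Unc5c, with 12.3 RPM in dendrites and 1589 in somas (129-fold, interval 93.8 to 183), and Plxna2, with 15.6 and 271 (17.4-fold, interval 12.9 to 24.0). The long genes Robo1 (381 and 365 RPM), Robo2 (473 and 666) and Dcc (633 and 954) differed by 1.04-fold, 1.41-fold and 1.51-fold. In dendrites alone were 13 members (29.5% of 44, against 44.9% of all genes), of which Ntng1 and Sema3a had an intron with at least 256 reads. In somas alone were 3 members (8.82% of 34, against 19.6%), of which Ephb4, a receptor of Efnb2, reached 256 reads in an intron. The astrocyte, cardiomyocyte, microglial and brown adipocyte markers of the dendrite list, at 966, 780, 275 and 221 RPM against 142, 15.6, 37.7 and 1.08 in somas, stand beside these ratios, as do the neuronal markers at 1446 RPM against 12424 in somas. Their part in them was not tested.

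In rat, 13 members were in both neuronal lists. Of these, 5 were at least 4-fold higher in dendrites (38.5%, against 35.7% of all genes) and 4 in somas (30.8%, against 24.6%). With at least 32 reads in both lists the numbers were 2 and 2, and with contigs of at most 400 nt 2 in dendrites and 5 in somas. The median log2 ratio was -0.18 for members and 0.73 for all 2166 genes, and the member median was -1.62 at that contig limit. Ntng1 had 710 RPM in dendrites and 1.91 in somas (372-fold, interval 145 to 1368), Slit3 157 and 3.82 (41.1-fold, interval 20.3 to 96.8), Nrp2 310 and 31.5 (9.83-fold, interval 7.51 to 13.0) and Dcc 3689 and 394 (9.35-fold, interval 8.67 to 10.1). Slit2 had 3.97 RPM in dendrites and 635 in somas (160-fold, interval 62.3 to 588), Slit1 4.96 and 174 (35.0-fold, interval 14.9 to 108), and Epha5 66.5 and 608 (9.14-fold, interval 7.15 to 11.9). Epha7 and Sema3a had an intron with at least 256 reads in dendrites and were not listed in somas, and for Ephb3 the lists were the other way around. Members in dendrites alone were 27.8% of 18 (against 51.7% of all genes), and members in somas alone were also 27.8% of 18 (against 36.2%). Other cell types moved with this comparison. Rat dendrites held 4 of 5 fibroblast markers (348 RPM, none listed in somas), the microglial marker Itgam as 1 of 4 (696 RPM, none listed in somas) and 2 of 5 endothelial markers (250 RPM, against 2.86 in somas), and less of the neuronal markers, 2660.0 RPM against 9637. Their part in the ratios was not tested.

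The direction of the dendrite to soma ratio was then set side by side in mouse and rat neurons. Of 11 members listed in all 4 neuronal lists, 4 had ratios of the same sign in both species and 7 of opposite sign (63.6%, against 49.0% of all 1090 genes in these lists). All 4 of the same sign had a counting interval away from 1 in both species. Of the 7, 3 had such intervals and 1 was past 4-fold in both species. These interval and fold counts are not given for all genes. Sema5a was 11.1-fold higher in mouse dendrites and 5.60-fold higher in rat somas (interval 4.31 to 7.40), Epha5 was 3.13-fold higher in mouse dendrites (interval 2.80 to 3.51) and 9.14-fold higher in rat somas, and Dcc was 1.51-fold higher in mouse somas (interval 1.41 to 1.61) and 9.35-fold higher in rat dendrites. Nrp2 and Sema3d were higher in dendrites of both species, and Slit2 and Sema3c in somas of both. The difference between the species was not tested, since each contrast rests on 2 pooled lists.

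**Figure D3:**
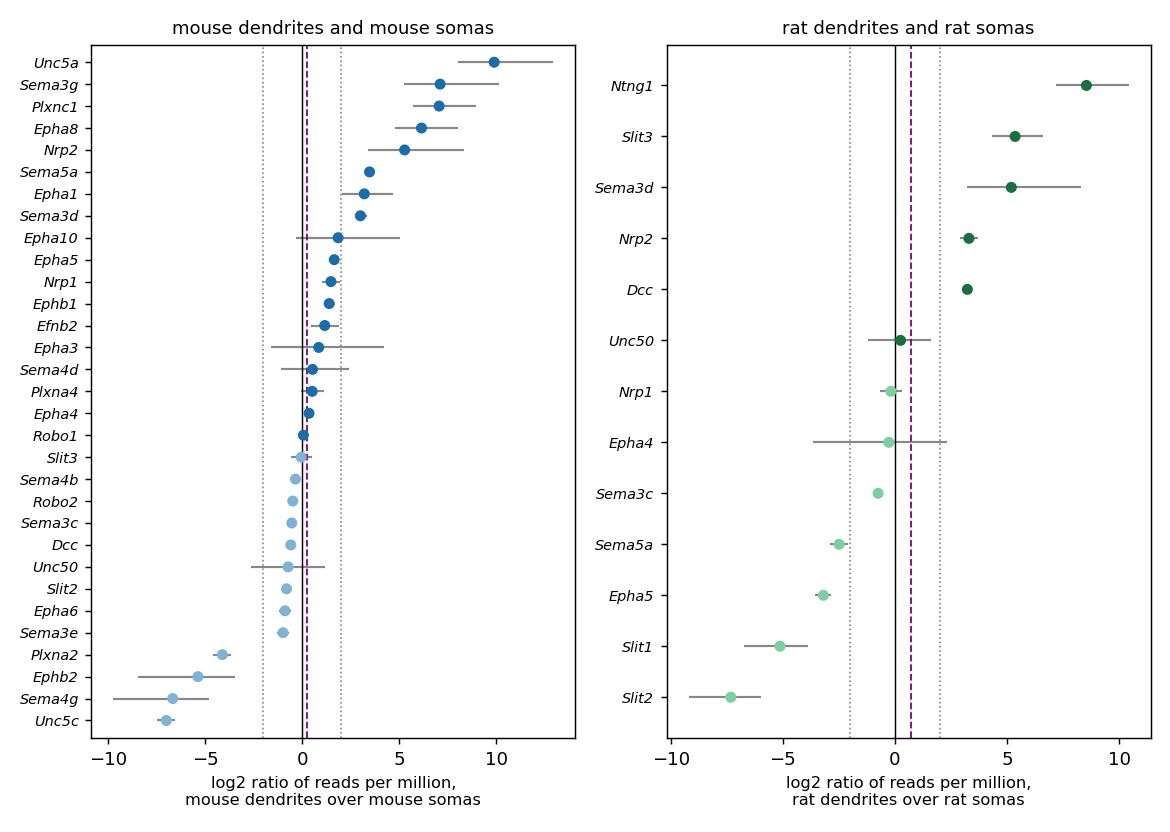
Log2 ratio of RPM in dendrites over somas for the 31 mouse members (left) and 13 rat members (right) that both lists of a species hold, with 95% counting intervals as grey lines. Dotted lines mark 4-fold and the purple dashed line the median of all genes (0.27 and 0.73); points run from -7.01 (Unc5c) to 9.90 (Unc5a) in mouse and from -7.32 (Slit2) to 8.54 (Ntng1) in rat.

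In the comparison of the 2 cell types outside the nervous system, member log2 ratios of BAT cells to cardiomyocytes ran from -10.58 to 6.53. For mouse dendrites over somas they ran from -7.01 to 9.90. The lists differ in depth, and the lowest values here rest on 1 or 2 reads in BAT cells. All 26 cardiomyocyte members were also in the BAT list, whereas 22 BAT members were not in cardiomyocytes (45.8% of 48, against 46.8% of all genes). Of the 26, 10 were at least 4-fold higher in BAT cells (38.5%, against 34.3%) and 11 in cardiomyocytes (42.3%, against 28.3%). With at least 32 reads in both lists the numbers were 4 and 5. The median log2 ratio of BAT cells to cardiomyocytes was -1.28 for members and 0.32 for all 5442 genes. Higher in cardiomyocytes were Nrp1, with 48.4 RPM in BAT cells and 3094 in cardiomyocytes (63.9-fold, interval 59.8 to 68.5), Robo1 with 164 and 2895 (17.6-fold, interval 17.0 to 18.3), Plxna2 with 26.4 and 221 (8.37-fold, interval 7.58 to 9.25) and Epha1 with 0.224 and 155 (693-fold, interval 270 to 2548). Ntn1 (2 reads in BAT cells) and Sema3g (1 read) were 1526-fold (interval 422 to 12608) and 1503-fold (interval 269 to 59430.3) higher. Higher in BAT cells were Slit3, with 45.6 and 0.492 RPM (92.7-fold, interval 42.4 to 253), Slit1 with 45.5 and 0.984 (46.3-fold, interval 26.4 to 90.0), Dcc with 734 and 25.9 (28.3-fold, interval 25.3 to 31.8) and Sema3d with 693 and 40.8 (17.0-fold, interval 15.5 to 18.6). All 3 Slits were thus higher in BAT cells and both listed Robo receptors in cardiomyocytes. Epha5, Ephb1, Nrp2, Robo4 and Unc5c had an intron with at least 256 reads in BAT cells and were not listed in cardiomyocytes. The BAT reads stand beside the 8 of 10 neuronal markers of that list, at 1043 RPM, where cardiomyocytes held 2 of 10 at 373. Their part in the Dcc, Epha5 and Unc5c reads was not tested.

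Mouse somas served for 2 more comparisons, which share that list with each other and with the dendrite comparison. Somas and BAT cells shared 29 members, of which 12 were at least 4-fold higher in somas (41.4%, against 33.7%) and 4 in BAT cells (13.8%, against 26.7%). With at least 32 reads in both lists the numbers were 8 and 2. The median log2 ratio was 1.11 for members and 0.38 for all genes. Ephb4 had 214 RPM in somas and 2.80 in BAT cells (76.4-fold, interval 56.8 to 105) and Unc5c 1589 and 92.1 (17.3-fold, interval 16.2 to 18.3). Sema3d had 51.7 and 693 (13.4-fold higher in BAT cells, interval 11.0 to 16.6) and Sema3e 115 and 675 (5.85-fold, interval 5.11 to 6.73). Dcc, a neuronal receptor, differed by 1.30-fold between them, with 954 and 734 RPM. In somas alone were 5 members (14.7% of 34, against 13.9% of all genes) and in BAT cells alone 19 (39.6% of 48, against 50.3%), of which Robo4 and Slit1 had an intron with at least 256 reads. Somas and cardiomyocytes shared 19 members, with 7 at least 4-fold higher on each side (36.8%, against 37.0% for somas and 26.2% for cardiomyocytes). With at least 32 reads in both lists the numbers were 4 in somas and 3 in cardiomyocytes, and with contigs of at most 400 nt 6 and 4. The median log2 ratio was -0.79 for members and 0.50 for all genes, and the member median changed sign to 0.32 with at least 32 reads in both lists and to 0.82 with contigs of at most 400 nt. Sema5a was 82.5-fold higher in somas (interval 53.4 to 134), with 149 and 1.80 RPM, and Dcc 36.8-fold (interval 32.7 to 41.6), with 954 and 25.9. Nrp1 was 110-fold higher in cardiomyocytes (interval 84.2 to 148), with 28.0 and 3094, and Sema3e 19.0-fold (interval 16.6 to 21.9), with 115 and 2194. In somas alone were 15 members (44.1% of 34, against 37.2% of all genes), of which Epha5, Ephb4 and Unc5c reached 256 reads in an intron. In cardiomyocytes alone were 7 (26.9% of 26, against 40.4%), of which Ntn1 and Sema6d did.

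**Figure D4:**
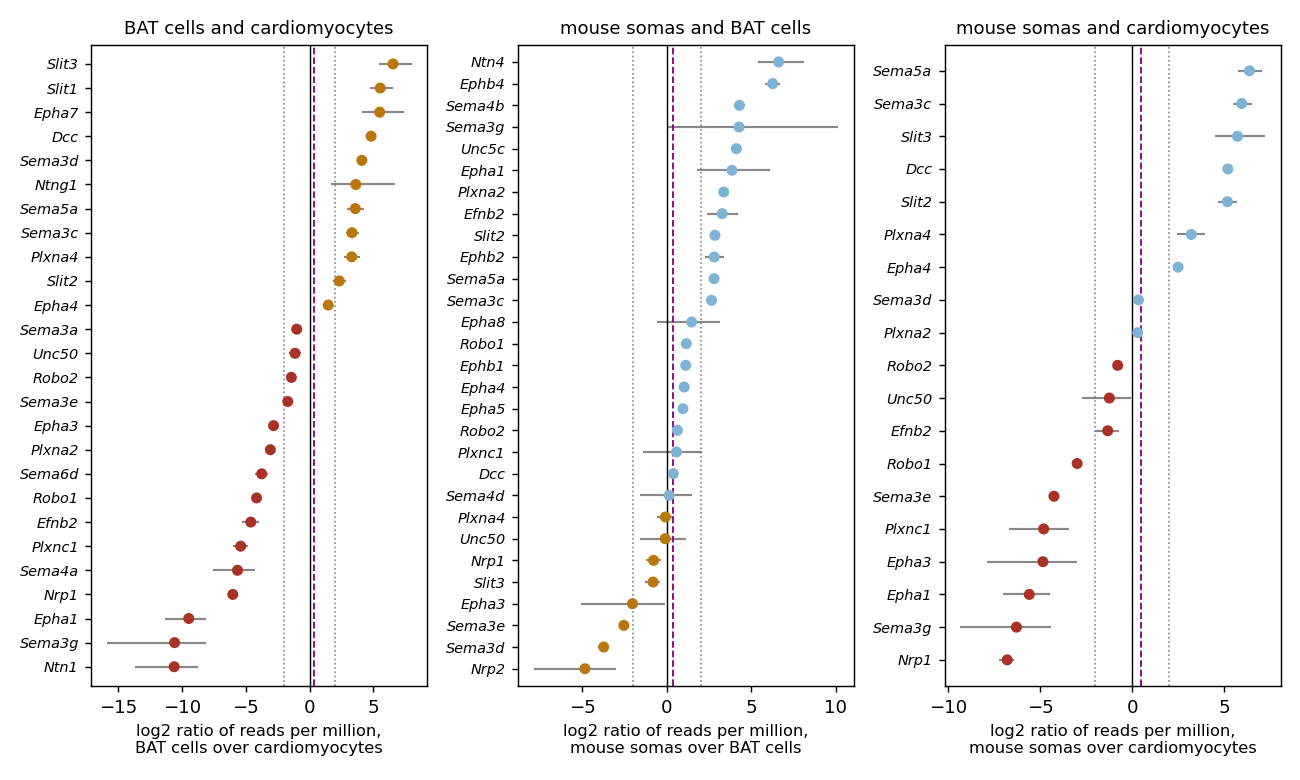
Log2 ratio of RPM for members that both lists of a pair hold, for BAT cells over cardiomyocytes (26 members), mouse somas over BAT cells (29) and mouse somas over cardiomyocytes (19), with 95% counting intervals in grey, 4-fold as dotted lines and the median of all genes as a purple dashed line. Nrp1 sits at -6.00 in the first panel, -0.79 in the second and -6.79 in the third.

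The lists were then compared intron by intron. Of the 129 member introns of mouse dendrites and the 85 of mouse somas, 47 were in both, 36.4% of the first (against 25.9% for all introns) and 55.3% of the second (against 47.8%). In 20 of the 47 the contigs overlapped, 42.6% against 58.0% for all shared introns. BAT cells and cardiomyocytes shared 38 introns, 26.4% of 144 (against 26.1%) and 55.1% of 69 (against 60.0%), with overlapping contigs in 16 (42.1%, against 65.3%). Mouse dendrites shared 69 introns with BAT cells, 53.5% of their own (against 48.6%) and 47.9% of those of BAT cells (against 31.6%), with overlap in 24 (34.8%, against 44.0%). They shared 35 with cardiomyocytes, 27.1% of their own (against 24.0%) and 50.7% of those of cardiomyocytes (against 35.9%), with overlap in 11 (31.4%, against 44.9%). Mouse somas shared 41 with BAT cells, 48.2% of their own (against 55.5%) and 28.5% of those of BAT cells (against 19.5%), with overlap in 14 (34.1%, against 52.4%). They shared 28 with cardiomyocytes, 32.9% of their own (against 32.9%) and 40.6% of those of cardiomyocytes (against 26.6%), with overlap in 10 (35.7%, against 59.8%). Rat dendrites and somas shared 10 introns, 23.8% of 42 (against 24.9%) and 31.2% of 32 (against 34.8%), with overlap in 5 (50.0%, against 66.5%). In each of these 7 pairs, the share of common introns with overlapping contigs was lower for members than for all genes. The median annotated intron of member transcripts was longer than that of all genes in every mouse list (2170.0 against 1671 nt in dendrites). Rat introns were not measured here, and the part of length in these shares was not tested.

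Over the 4 mouse lists, 251 member introns were listed, of which 139 were in a single list (55.4%, against 60.5% of all introns) and 18 in all 4 (7.17%, against 3.70%). The 18 introns belonged to 11 genes, Dcc, Epha4, Nrp1, Plxna4, Robo1, Robo2, Sema3c, Sema3e, Sema3g, Sema5a and Unc50. Presence in all lists did not mean like counts. Robo1 intron 3 had 70.6 RPM in mouse dendrites, 2.16 in mouse somas, 57.6 in BAT cells and 1794 in cardiomyocytes. Sema3e intron 1, 117849 nt long, had 22.4, 101, 474 and 1285 RPM in the same order. Nrp1 intron 12 had 18.1, 24.8, 0.784 and 10.2 RPM, and Dcc intron 15 had 47.9, 16.2, 4.26 and 11.6. Coverage base by base, which can only be rarer than a shared intron, was counted for members only, without all genes beside it. Of 112 member introns in at least 2 mouse lists, 57 had a base covered in at least 2 lists, 8 introns had a base covered in 3 lists and only intron 5 of Unc50 one covered in 4. The 8 introns were those printed above of Nrp1, Plxna2, Robo1 and Sema3g, with Dcc intron 5, Epha8 intron 5, Robo2 intron 6 and Sema3d intron 3.

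Member transcripts have long introns. In the GENCODE annotation of NCBIM37, the 46 matched member transcripts of mouse dendrites had a median of 141029.5 nt of summed intron, against 36047 nt for all transcripts of the list. Of their 851 introns, 127 held a contig, 14.9% (95% Wilson interval 12.7 to 17.5), against 15.8% for all genes. The shares were 14.0% in mouse somas (interval 11.5 to 17.0, against 11.9%), 15.4% in BAT cells (interval 13.2 to 17.9, against 21.7%) and 13.2% in cardiomyocytes (interval 10.6 to 16.4, against 14.6%). Members of BAT cells thus lay below all genes, beyond the counting error, and the other 3 lists did not differ from all genes beyond it. Listed introns were longer than unlisted ones, with medians of 8402 and 1805 nt in mouse dendrites, 6251 and 2446 nt in mouse somas, 5904 and 1399.5 nt in BAT cells and 7306 and 2330.5 nt in cardiomyocytes. Up to 10000 nt, members lay below all genes in 3 of the mouse lists. In BAT cells a contig was present in 16 of 359 member introns up to 1000 nt (4.46%, interval 2.76 to 7.12), against 6148 of 51174 for all genes. The shares were 12.9% against 21.6% between 1000 and 3000 nt (interval 9.03 to 18.1) and 24.1% against 33.3% between 3000 and 10000 nt (interval 18.5 to 30.7), and in all 3 classes members were lower beyond the counting error. In mouse dendrites the shares of these classes were 2.99% against 4.05%, 9.26% against 14.7% (interval 6.07 to 13.9) and 22.3% against 27.8%, of which only the middle class was beyond it. In cardiomyocytes they were 4.51% against 8.68%, 8.82% against 13.7% and 18.0% against 21.2%, all within it. In mouse somas they were 1.33% against 4.18%, 14.0% against 10.7% and 16.6% against 19.6%, also within it. Between 10000 and 30000 nt, mouse dendrites had a contig in 35.8% of member introns and 35.7% of all introns, and above 100000 nt in 4 of 22 (18.2%, against 15.5%). In transcripts with at least 5 introns, 58.7% of the listed member introns of mouse dendrites lay in the 5′ part and 58.0% of those of all genes, where 51.5% and 51.7% of all their introns lie there.

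**Figure D5:**
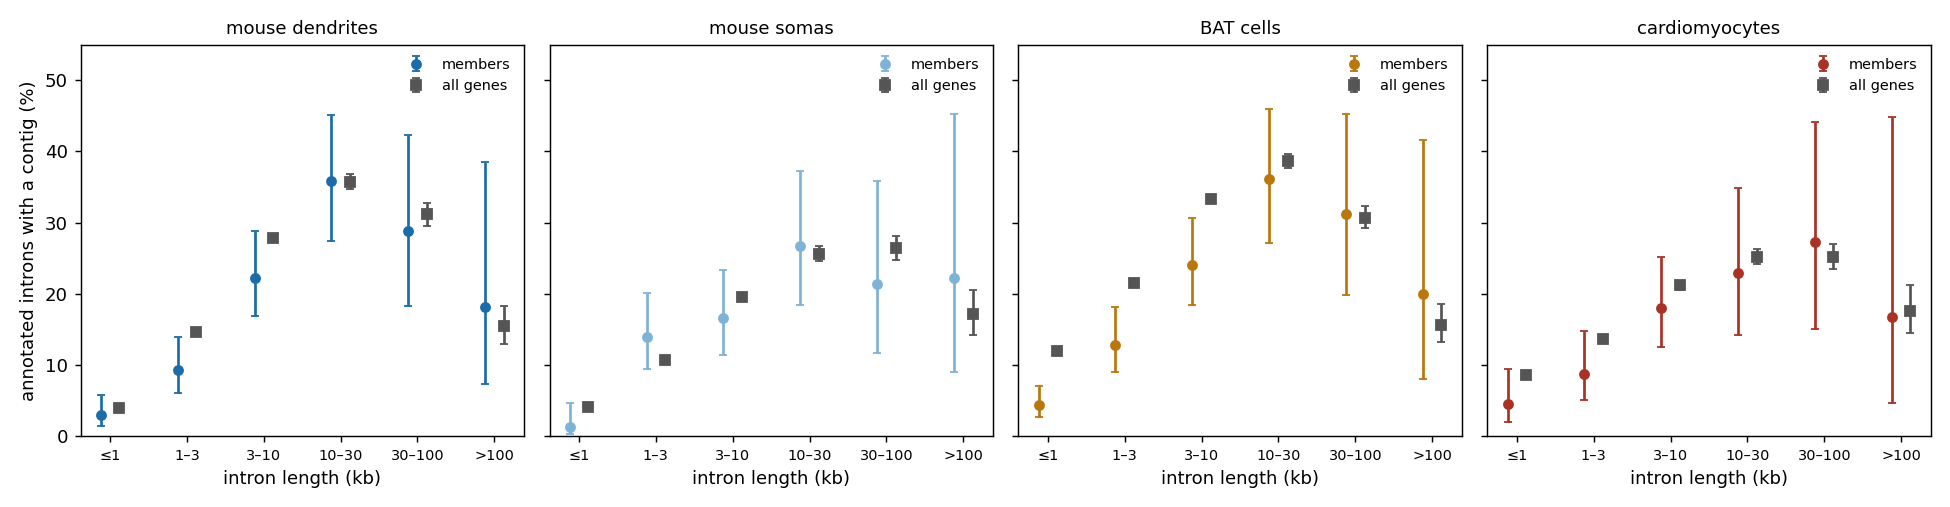
Share of annotated introns that hold a contig (%) by intron length in kb, for member transcripts (circles) and all transcripts of the list (squares), with 95% Wilson intervals, in the 4 mouse lists. The share rises with length up to 10000 to 30000 nt in both in mouse dendrites, mouse somas and BAT cells, and the member circles of the 3 shortest classes lie below the squares in BAT cells, mouse dendrites and cardiomyocytes, outside the intervals for all 3 in BAT cells and for 1000 to 3000 nt in mouse dendrites.

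Contig lengths of members and of all genes were set side by side. The median contig was 259 nt in mouse dendrites (256 for all genes), 285 in mouse somas (277), 244 in BAT cells (273), 309 in cardiomyocytes (282), 303 in rat dendrites (278) and 352 in rat somas (303). The mean was 365 nt (352 for all genes), 437 (391), 342 (395), 474 (409), 424 (363) and 408 (416) in the same order, so members had the lower mean in BAT cells and rat somas and the higher one elsewhere. A single contig was found in 63.6% of member introns of mouse dendrites, against 80.0% for all genes. A run of at least 10 adenines lay within 300 nt downstream of 15 of 238 member contigs in mouse dendrites (6.30%, interval 3.86 to 10.1, against 8.11% for all contigs), 20 of 121 in mouse somas (16.5%, interval 11.0 to 24.2, against 18.6%), 19 of 269 in BAT cells (7.06%, interval 4.57 to 10.8, against 7.36%) and 12 of 103 in cardiomyocytes (11.7%, interval 6.79 to 19.3, against 9.53%). All 4 intervals included the value of all genes. On the upstream side the member shares were between 1.26% and 3.72%, and those of all contigs between 2.40% and 2.80%. A thymine run of the same length, an adenine run on the other strand, lay within 300 nt upstream of 11.8% of member contigs in mouse dendrites (against 12.6% of all contigs), 11.6% in mouse somas (against 11.4%), 8.92% in BAT cells (against 8.95%) and 6.80% in cardiomyocytes (against 7.61%). In mouse dendrites and BAT cells these shares were larger than those of downstream adenine runs. In Sema3e intron 1, a downstream adenine run followed 1 of 4 contigs in mouse dendrites, 1 of 4 in mouse somas, 1 of 16 in BAT cells and 1 of 10 in cardiomyocytes. In Dcc intron 5 it followed 2 of 10 contigs in mouse dendrites, 1 of 7 in mouse somas and 0 of 10 in BAT cells.

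Few member contigs touched an annotated exon, 3 of 238 in mouse dendrites (1.26%, against 5.04%), 3 of 121 in mouse somas (2.48%, against 9.59%), 7 of 269 in BAT cells (2.60%, against 7.51%) and 3 of 103 in cardiomyocytes (2.91%, against 11.4%). Those with most reads were Robo2 introns 4 (3395 reads) and 27 (2071 reads) in cardiomyocytes, which touch annotated Robo2 exons, and Robo2 intron 9 (3392 reads) in BAT cells, which overlaps a miRNA gene on the opposite strand. The Sema4b contigs of mouse dendrites and somas and the Unc5c intron 2 contig of mouse somas also touch exons of their own gene. Per the study, the library protocol does not keep strand, so reads of a gene and of a transcript on the other strand cannot be told apart.

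Other genes of the pathway were the kinases, GTPase regulators, adhesion molecules and further cues that act with these receptors. Of 86 such genes, 72 were in a mouse list, of which mouse dendrites held 61 (84.7%, against 69.0% of all genes), mouse somas 43 (59.7%, against 47.3%), BAT cells 62 (86.1%, against 82.0%) and cardiomyocytes 44 (61.1%, against 49.8%). In rat 48 were listed, 39 of them in dendrites (81.2%, against 78.5%) and 38 in somas (79.2%, against 59.4%). An intron with at least 256 reads was found in 29.5% of those listed in mouse dendrites (against 23.5%), 27.9% in mouse somas (against 18.7%), 45.2% in BAT cells (against 40.2%), 54.5% in cardiomyocytes (against 42.9%), 28.2% in rat dendrites (against 15.8%) and 52.6% in rat somas (against 30.4%).

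Per listed gene, members had the higher mean in mouse dendrites (175 RPM, against 123 for the other pathway genes), cardiomyocytes (396 against 207) and rat dendrites (390 against 240), and the lower one in mouse somas (167 against 329), BAT cells (72.1 against 142) and rat somas (190 against 822). These means rest on a few introns and are not corrected for length. In rat dendrites, Dcc intron 5 alone had 3373 RPM, and without it the member mean was 202 RPM, below the 240 of the other pathway genes. With the most read intron left out on both sides, the means were 202 and 199 RPM in rat dendrites, and 139 for members and 581 for the others in rat somas. Gene by gene, 18 of 31 members were higher in mouse dendrites and 13 in mouse somas, and 6 of 13 were higher in rat dendrites and 7 in rat somas. The share of all genes on each side is not given. Their median log2 ratio of dendrites to somas was 0.27 in mouse and 0.73 in rat.

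The most read of the other pathway genes were the kinase Rock1 with 2781 reads in mouse dendrites and 27381 in cardiomyocytes, the adhesion molecule Nrcam with 6752 in mouse somas, the netrin and RGM receptor Neo1 with 42441 in BAT cells, the exchange factor Arhgef12 with 1831 in rat dendrites and the kinase Fyn with 19260 in rat somas. Of the other pathway genes in both lists of a pair, 14 of 39 were at least 4-fold higher in mouse dendrites (35.9%, against 33.2% of all genes) and 13 in mouse somas (33.3%, against 24.9%), with a median log2 ratio of 0.74. In rat, 8 of 29 were so in dendrites (27.6%, against 35.7%) and 13 in somas (44.8%, against 24.6%), with a median of -1.44. Between the other cell types, 19 of 41 were so in BAT cells (46.3%, against 34.3%) and 13 in cardiomyocytes (31.7%, against 28.3%), with a median of 1.48.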

How the data were processed

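The deposited lists of 6 conditions, labelled with 26 libraries in all, were used. Per the study's methods, the authors aligned reads to mm9 or rn4, kept uniquely mapped intronic reads and joined them into contigs within 500 bp. Values are raw read counts per intron as deposited by the authors, pooled over libraries and repeated on each contig of an intron. Depth per library is not in the lists. With Python 3.11.15, pandas 2.3.3, numpy 2.4.6, scipy 1.17.1, pysam 0.24.0 and matplotlib 3.10.9, counts were taken once per transcript and intron, summed by symbol and scaled to RPM (reads per 1000000 of the list). Ratios carry exact binomial and shares Wilson 95% intervals, which cover counting error only. Reads from PCR are not independent molecules. The ratios were tested on simulated data. Start positions were shifted by 1. Of 58 mouse member transcripts, 56 were matched to GENCODE. Rat sequence was not analysed here. Members, lists and the naming rule were chosen with earlier results of these data known. Names were drawn from the 5 most read introns per list, members in all lists, family leaders, extreme ratios and genes at 256 reads missing from the other list. Not all of these were named, and some others were. Left out of the mouse dendrite comparison were, for example, Sema3g (139-fold), Epha8 (70.8-fold) and Nrp2 (38.8-fold), higher in dendrites. Also left out there were Sema4g (102-fold) and Ephb2 (41.6-fold), higher in somas.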

Additional observations from a re-analysis of the deposited data

Results flagged for a closer look

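The following 3 members had ratios of dendrites to somas that pointed in opposite directions in mouse and rat, with a counting interval away from 1 in each species. For Sema5a the log2 ratio was 3.47 in mouse and -2.49 in rat, a difference of 5.96. For Epha5 it was 1.65 and -3.19, a difference of 4.84. For Dcc it was -0.59 and 3.23, a difference of -3.82. Of all 1090 genes in the 4 neuronal lists, 49.0% had ratios of opposite sign, and of the 11 members 63.6%. The 4 members with ratios of the same sign also had a counting interval away from 1 in each species. The difference between the species was not tested, since each ratio comes from 2 pooled lists. Some of these gene sums lay mostly in a single intron and others did not. Intron 5 held 4957 of the 5078 mouse dendrite reads of Sema5a, intron 10 held 1903 of the 1959 mouse dendrite reads of Epha5, and intron 5 held 3398 of the 3717 rat dendrite reads of Dcc. The most read intron held 772 of the 1955 mouse dendrite reads of Dcc, 25 of the 61 rat dendrite reads of Sema5a and 32 of the 67 rat dendrite reads of Epha5. In mouse somas it held 246 of 276 reads of Sema5a, 348 of 376 of Epha5 and 1372 of 1770 of Dcc. In rat somas it held 710 of 710, 1140 of 1273 and 460 of 826 in the same order.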

How the results depend on the processing

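Of 242 values recomputed for 46 results, 182 stayed within the limits set (1.5 times for a count, the counting interval for a share, the semi-interquartile range over members for a median), 57 moved and 3 changed direction. Within that wide limit, the median log2 ratio of rat dendrites over somas, -0.18, went to -0.92 when scaled by the median ratio of all genes, and to -1.62 with contigs of at most 400 nt. Changed directions were those of the median log2 ratio for mouse dendrites over somas (-0.20 with at least 32 reads in both lists) and for mouse somas over cardiomyocytes (0.32 with that minimum and 0.82 with contigs of at most 400 nt). The cause was not tested. No library could be left out and no paired value exists, since each list is a pool. No paired analysis was possible because the pooled lists carry no replicate numbers. Rat introns without contigs, and depth per library, were not analysed here, and introns with few reads limit every ratio.

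With introns of at least 32 reads, listed introns fell to 64 in mouse dendrites, 37 in mouse somas, 71 in BAT cells, 41 in cardiomyocytes, 15 in rat dendrites and 19 in rat somas, and listed genes to 21 in mouse somas, 31 in BAT cells and 10 in rat dendrites. The share of annotated introns was then 7.29%, 6.10%, 7.61% and 7.98% in mouse dendrites, mouse somas, BAT cells and cardiomyocytes. Genes with an intron of at least 32 reads numbered 30, 21 and 31 in mouse dendrites, mouse somas and BAT cells and 10 and 12 in rat dendrites and somas, and with at least 1024 reads 3, 2, 8, 8, 1 and 2 in mouse dendrites, mouse somas, BAT cells, cardiomyocytes, rat dendrites and rat somas.

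With contigs of at most 400 nt, rat somas held 11 genes and 19 introns, genes with a highly read intron numbered 4 in mouse somas and 9 in cardiomyocytes, and the share of annotated introns was 12.1%, 10.7%, 12.6% and 9.53% in the mouse lists in the order above. Members past 4-fold were then 2 in rat dendrites over somas and 4 in cardiomyocytes over mouse somas. With at least 32 reads in both lists they were 2 and 2 for mouse dendrites and somas, 2 and 2 for rat dendrites and somas, 4 and 5 for BAT cells and cardiomyocytes, 2 for BAT cells over mouse somas, and 4 and 3 for mouse somas and cardiomyocytes. At 2-fold, 13 members were higher in mouse dendrites, and at 8-fold 2 were higher in BAT cells than in mouse somas. Runs of at least 8 adenines lay downstream of 16.0%, 24.8%, 11.2% and 23.3% of member contigs. Overlap by at least 1 base left 15.5% of introns shared for mouse dendrites, 11.9% for rat dendrites, 11.1% for BAT cells, and 16.5% and 11.8% for mouse somas with BAT cells and cardiomyocytes, and 17.2% of mouse dendrite introns were shared at 32 reads in both lists. Leaving out Ntng1 and Unc50, an alternative chosen after seeing the data, moved no count, share or median beyond the limits set. Members past 4-fold in rat dendrites were then 4 instead of 5, and the median of mouse somas over cardiomyocytes was -0.25.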
